A study of Mus musculus with 4 samples.

Results

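The parietal bone and the frontal bone of the mouse skull vault were compared in wild-type C57BL/6J animals at postnatal day 21 through 1 RNA-seq library of each bone, 2 of the 4 libraries of the study. The other 2 libraries came from the same bones of *Twist1*+/- mice of the same strain and age, which carry 1 inactive copy of the gene for the bHLH transcription factor Twist1. RNA was taken from 12 mice of each genotype, and how many animals went into a library is not given in the sources used here. The bones used for RNA were described as holding pericranium, bone plate and dura mater, so each library measures a whole tissue and not osteoblasts alone. Each gene has 1 value per library in FPKM, a count of fragments scaled to the length of the transcript and to the size of the library, so levels can be compared between genes. With 1 library a side no difference has a replicate check, no p-value is given, and every ratio describes these libraries.

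The vault bones form by intramembranous ossification, in which mesenchymal cells become osteoblasts without a cartilage model, and osteoblasts that are buried in the matrix become osteocytes. The frontal bone arises from cranial neural crest and the parietal bone from paraxial mesoderm, and the coronal suture lies between them. Both bones hold marrow and osteoclasts, touch the meninges on the inner side, and carry periosteum and muscle attachments on the outer side. The frontal bone also borders the nasal region and the olfactory bulbs, while the temporalis muscle attaches largely along the parietal bone.

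The files list 23946 genes, of which 10272 were compared. A gene was compared where neither wild-type value was 0 and the higher value was 5 FPKM or more, and short RNA genes (names starting with Mir, Snora, Snord or Scarna) were left out. Among the rest, 7226 stayed below 5 FPKM, 3695 were listed at 0 on both sides and 1193 were short RNA genes. A further 1553 had a 0 on 1 side and less than 5 FPKM on the other. The last 7 had a 0 on 1 side and 5 FPKM or more on the other, and have no ratio. *Col1a1* and *Col1a2*, the chains of type I collagen, are listed at 0 in frontal and at 5595 and 6326 FPKM in parietal bone. In *Twist1*+/- mice both are listed at 0 in frontal bone and in parietal bone. The haemoglobin genes *Hba-a1*, *Hbb-b1*, *Hbb-bs* and *Hbb-bt* are also listed at 0 in wild-type frontal bone. Since bone and red cells use these genes in quantity, a value of 0 is given here only as listed. The summed FPKM was 496064 in frontal and 701440 in parietal bone. Among 608 genes between 0.005 and 0.1 FPKM in both wild-type libraries, the most common ratio of parietal over frontal FPKM was 1.73. It held for 5.59% of them, against a median of 1.81% at other ratios. If this peak stands for 1 read on each side, 1 read was worth 1.73 times as many FPKM in parietal bone. The study states read depth as an average over libraries, not for either library. Markers of bone were present on both sides, with *Runx2*, the master regulator of osteoblasts, at 25.3 against 37.5 FPKM in frontal and parietal bone and the osteocalcin gene *Bglap* at 6811 against 5220.3 FPKM. In the pairs of values that follow, the frontal value stands first and the parietal value second.

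The ratio of parietal over frontal FPKM had a median of 0.07 on the log2 scale and an SD of 1.09 across genes, and 55.3% of the genes lay within 1.5-fold. In parietal bone 304 genes (2.96%) were higher by more than 3-fold, and in frontal bone 563 genes (5.48%). The direction of the excess depended on the threshold, since 1127 genes were higher in parietal and 1109 in frontal bone past 2-fold, against 50 and 82 past 16-fold. It also depended on level. Between 5 and 10 FPKM in the higher library, 2.75% of 2805 genes were higher in parietal and 8.09% in frontal bone past 3-fold, while at or above 1000 FPKM these shares were 10.8% and 2.41% of 83 genes. When both libraries were scaled to the same *Gapdh* value, which lowers every log2 ratio by 0.44, the counts became 180 and 922. Gene groups are therefore given below as counts past 3-fold and as a median, to be read against these shares and against the median of 0.07, and every group said to be higher in a bone kept the sign of its median under that scaling unless the sentence says otherwise. Counts past 3-fold are less stable than medians where members lie near the threshold, and counts of 1 or 2 genes often changed with the setting. In bulk samples, fewer cells of a type and less RNA per cell cannot be told apart.

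**Figure D1:**
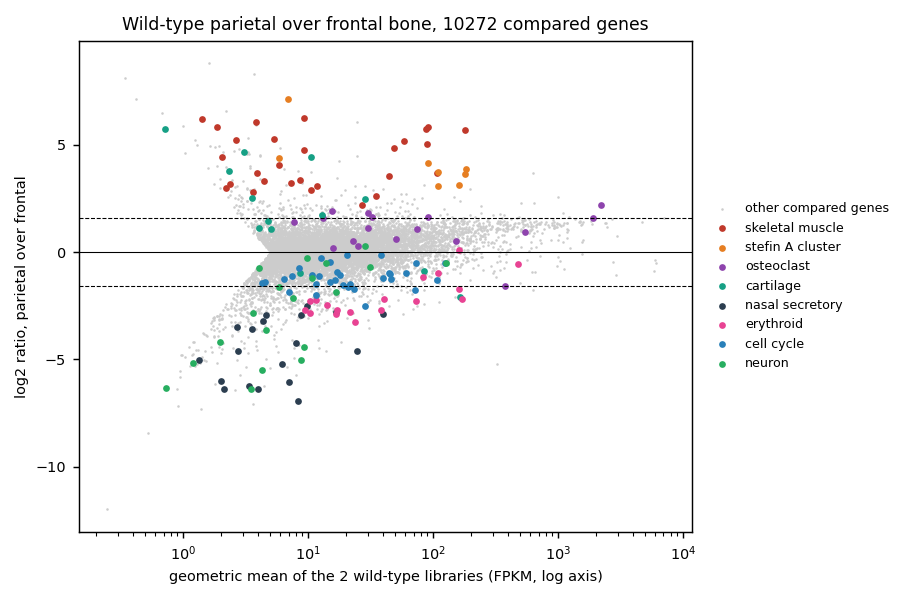
Log2 ratio of wild-type parietal over frontal bone (vertical axis) against the geometric mean of both FPKM values (horizontal log axis) for the 10272 compared genes, 1 point a gene, with 8 gene lists in colour and dashed lines at 3-fold. All 28 muscle genes and all 8 stefin genes lie above the upper line, and all 19 nasal genes lie below the lower line.

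Genes of osteoclasts, the cells that resorb bone, were higher in parietal bone. Of 17 compared genes of the osteoclast list, 16 had the higher value in parietal bone, 7 of them by more than 3-fold and 0 in the opposite direction, and the median log2 ratio was 1.14. Several members lay near 3-fold, and the counts higher in parietal and frontal bone became 4 and 1 with median scaling, 5 and 1 with the GC trend subtracted, 4 and 1 with the length trend subtracted, and 1 and 1 with *Gapdh* scaling. *Ctsk* (chromosome 3, from 95303208 to 95313284), the cathepsin that digests bone collagen, had 1027 FPKM in frontal and 4782 FPKM in parietal bone, 4.66 times as much. *Acp5*, the tartrate-resistant phosphatase used as an osteoclast stain, had 1098 against 3345 FPKM (3.05-fold). The fusion genes *Dcstamp* and *Ocstamp*, which let precursors merge into multinucleated cells, had 15.8 against 56.5 FPKM and 8.02 against 30.4 FPKM. *Oscar*, a co-stimulatory receptor, had 18.2 against 57.4 FPKM, and *Atp6v0d2*, a subunit of the proton pump that acidifies the resorption pit, had 51.7 against 159 FPKM. *Siglec15*, a receptor on fusing precursors, lay just inside the threshold at 7.63 against 22.9 FPKM. The receptor for RANKL, *Tnfrsf11a*, stood at 4.69 against 12.5 FPKM with a log2 ratio of 1.41, and the osteoclast transcription factor *Nfatc1* at 22.3 against 27.7 FPKM (log2 ratio 0.31). The exception was *Car2*, carbonic anhydrase II, which had 652 against 219.8 FPKM and a log2 ratio of -1.57. *Car2* is also abundant in red cell precursors, whose genes were higher in frontal bone, as given below, and their part in its value was not tested.

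The osteoclast genes were also higher on the parietal side in the *Twist1*+/- pair of libraries, which the wild-type comparison does not use: 17 of 17 had the higher value in parietal bone, with a median log2 ratio of 0.83 and none past 3-fold. *Ctsk* was at 1229 against 2600.5 FPKM there. The signals that act on osteoclast precursors had smaller ratios. *Tnfsf11*, the gene of RANKL, had 4.34 against 5.77 FPKM, its decoy receptor *Tnfrsf11b* had 7.17 against 9.02 FPKM, and the growth factor *Csf1* had 18.8 against 22.3 FPKM, none of them past 3-fold. *Mmp13*, the collagenase of hypertrophic chondrocytes and osteoblasts, had 289.6 against 1409 FPKM (4.87-fold), and *Timp1*, an inhibitor of such enzymes, had 167 against 552 FPKM (3.31-fold). They were the 2 of 14 compared protease and inhibitor genes past 3-fold, and the median of that list was 0.50.

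Transcription factors of osteoblasts had values on both sides. Of 13 osteoblast transcription factors, 8 had the higher value in parietal and 5 in frontal bone, and the median of 0.38 became -0.07 with *Gapdh* scaling. Of these 13 only *Msx2*, a homeobox gene of skull growth, passed 3-fold, at 1.52 against 5.44 FPKM. *Sp7*, the zinc-finger factor that commits cells to the osteoblast fate, had 86.7 against 56.9 FPKM (log2 ratio -0.61) and *Dlx3* had 23.9 against 10.3 FPKM (log2 ratio -1.22), both with the higher value in frontal bone. *Runx2* had the reverse order with a log2 ratio of 0.57. Among the *Twist1*+/- libraries, 12 of the 13 had the higher value in parietal bone, *Sp7* included, at 83.4 against 108 FPKM.

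The matrix and mineralization genes of osteoblasts also lay on both sides. Of 18 compared genes, 3 were higher in parietal bone past 3-fold and 0 in frontal bone, and their median of 0.04 changed sign under each of the 4 scalings or trend corrections. The 3 were *Mgp*, the inhibitor of calcification matrix Gla protein, at 407 against 2460.3 FPKM (6.04-fold), *Ostn*, which encodes the secreted peptide osteocrin, at 16.9 against 72.2 FPKM (4.27-fold), and *Ibsp*, bone sialoprotein, at 278 against 869 FPKM (3.13-fold). *Spp1*, the osteopontin gene and the highest level among the 18, came just under the threshold at 4107 against 12239 FPKM. Several of the most abundant had the higher value in frontal bone, with log2 ratios of -0.38 for *Bglap*, -0.49 for *Sparc*, the collagen-binding osteonectin, and -0.80 for *Serpinf1*. *Alpl*, the alkaline phosphatase that frees phosphate for mineral, had 144 against 144 FPKM, and *Phospho1*, the phosphatase of matrix vesicles, had 135 against 63.3 FPKM (log2 ratio -1.09). With 1 copy of *Twist1*, 16 of the 18 had the higher value in parietal bone, with a median of 0.60.

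Genes of osteocytes and of phosphate control were higher in parietal bone, led by *Fgf23* (chromosome 6, from 127022920 to 127031426), which encodes the hormone that makes the kidney excrete phosphate. *Fgf23* had 0.525 FPKM in frontal and 20.9 FPKM in parietal bone, a 39.8-fold difference, and ranked 19 of the 10272 compared genes by ratio. In *Twist1*+/- bone the order was opposite, with 1.004 against 0.202 FPKM, and that difference between genotypes rests on 1 library each and was not tested. Of the 15 compared genes of the list, 12 had the higher value in parietal bone and the median log2 ratio was 0.80. *Enpp1*, which makes the mineralization inhibitor pyrophosphate, was the other gene past 3-fold, at 28.3 against 92.2 FPKM. *Dmp1*, a matrix protein of osteocytes, had 99.4 against 291 FPKM, *Phex*, whose loss raises FGF23, had 34.5 against 75.7 FPKM, *Mepe* had 70.5 against 152 FPKM and *Pdpn*, a marker of young osteocytes, had 18.9 against 52.9 FPKM. The marker of mature osteocytes *Sost*, a Wnt inhibitor, had 26.7 against 18.3 FPKM, the higher value being in frontal bone. The *Twist1*+/- median of the list was 0.32, with *Dmp1* at 91.1 against 159 FPKM and *Phex* at 43.3 against 30.3 FPKM.

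**Figure D2:**
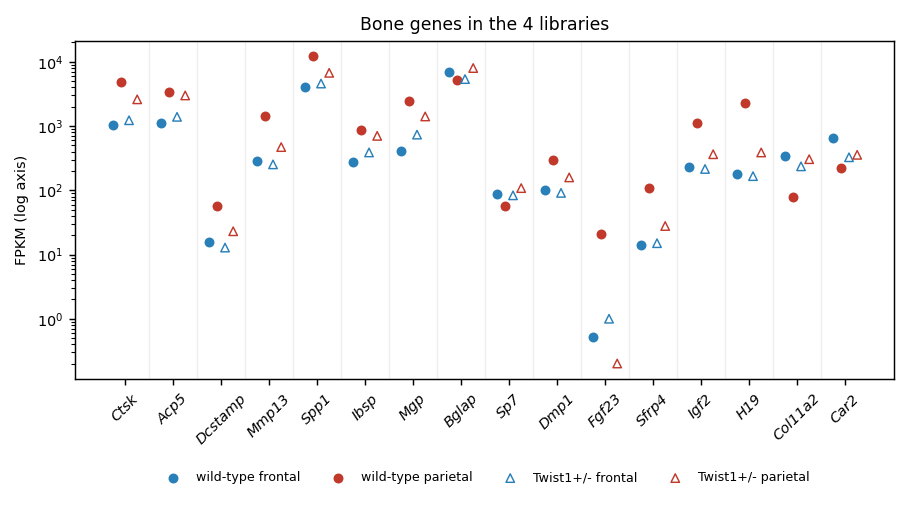
FPKM (log axis) of 16 bone, matrix and growth genes in the 4 libraries, with wild type as filled circles, *Twist1*+/- as open triangles, frontal bone in blue and parietal bone in red. In wild type the parietal value is above the frontal one for *Ctsk*, *Mmp13*, *Mgp*, *Fgf23*, *Sfrp4*, *Igf2* and *H19* and below it for *Bglap*, *Sp7*, *Col11a2* and *Car2*, and the parietal triangle of *Fgf23* is the lowest of its 4 values.

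Cartilage genes were higher in parietal bone, at low levels. Of 13 compared genes, 7 were higher in parietal bone past 3-fold and 1 in frontal bone, with a median log2 ratio of 1.72. *Mia*, a small secreted protein of chondrocytes, had 2.28 against 49.8 FPKM (21.9-fold), *Lect1*, the chondromodulin gene, had 0.611 against 15.4 FPKM, and *Ucma*, of upper-zone chondrocytes, had 0.0985 against 5.22 FPKM. The fibrillar cartilage collagen *Col2a1* had 1.49 against 8.61 FPKM and *Col9a1* had 0.633 against 8.61 FPKM. *Matn4*, a matrix adaptor protein, had 12.03 against 67.3 FPKM. The aggrecan gene *Acan* and the chondrocyte regulator *Sox9*, which define cartilage, stayed below 5 FPKM in both libraries, *Sox9* at 4.54 against 2.15 FPKM. *Col11a2*, a minor collagen of cartilage that bone also makes, was the 1 gene past 3-fold in the other direction, with 337 against 79.9 FPKM (4.21-fold higher in frontal bone), and *Col11a1* had 114 against 62.2 FPKM. Through these abundant collagens the summed FPKM of the 21 genes of the list had the opposite order to its median, 510.4 and 368. For comparison, *Mia* was at 4.77 against 4.73 FPKM in *Twist1*+/- bone, where none of the 13 passed 3-fold.

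Fibrous matrix showed smaller differences. Among 18 other collagen genes, *Col14a1* of tendon and fascia (2.31 against 15.2 FPKM) and *Col8a2* (13.1 against 44.1 FPKM) were higher in parietal bone past 3-fold, none was higher in frontal bone past 3-fold, and the list median of 0.17 changed sign with *Gapdh* scaling. The small leucine-rich proteoglycans, which bind and space collagen fibrils, had a median of 0.62, with 3 of 11 past 3-fold: *Ogn* at 50.5 against 162 FPKM, *Chad* at 7.11 against 23.4 FPKM and *Podnl1* at 7.31 against 24.3 FPKM. With *Gapdh* scaling 0 of the 11 passed it. The largest of this class by level, *Lum* and *Dcn*, had 661 against 1477 FPKM and 934 against 1298 FPKM, and *Bgn*, which bone makes in quantity, had the higher value in frontal bone, 1218 against 789 FPKM. Among 9 genes of periosteum and tendon, *Tnmd*, the tenomodulin gene of tendon cells, had 21.3 against 142 FPKM (6.65-fold) and *Cilp2* had 4.52 against 21.4 FPKM, both past 3-fold. *Postn*, the matrix protein periostin of the periosteum, had 396 against 1044 FPKM (log2 ratio 1.40), and *Scx*, the tendon transcription factor, had 4.94 against 5.65 FPKM. The 9 had a median of 0.79 in wild type (0.34 with *Gapdh* scaling). In the *Twist1*+/- pair it was 1.06, with *Tnmd* at 10.3 against 29.2 FPKM.

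Of the 7 signalling lists, the IGF system had the highest median ratio. *Igf2*, a fetal growth factor whose level normally falls after birth, had 231 FPKM in frontal and 1127 FPKM in parietal bone (4.88-fold), and its imprinted neighbour *H19*, a non-coding RNA, had 177 and 2278 FPKM (12.9-fold). *Igf1* had 28.1 against 77.6 FPKM (log2 ratio 1.47) and the binding proteins *Igfbp7* and *Igfbp4* had 78.3 against 226 FPKM and 177 against 381 FPKM, while the receptor *Igf1r* had 8.67 against 6.33 FPKM. The median of 12 compared IGF genes was 0.91, and in the *Twist1*+/- pair it was 0.48, with *Igf2* at 215 against 364 FPKM and *H19* at 166 against 388 FPKM.

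In the Wnt pathway, which drives osteoblast formation, 1 of 24 compared genes passed 3-fold. That gene was the secreted inhibitor *Sfrp4*, with 14.3 against 109.8 FPKM (7.699-fold). *Ctnnb1*, which encodes beta-catenin, had 328 against 457 FPKM, the co-receptor *Lrp5* had 29.4 against 12.7 FPKM (log2 ratio -1.21), and the inhibitors *Wif1* and *Dkk1* had 283 against 188 FPKM and 23.4 against 28.2 FPKM. Among 21 BMP genes *Bmp6* alone passed the threshold, higher in frontal bone at 7.34 against 2.37 FPKM. The BMP target *Id2* had 77.4 against 197 FPKM (log2 ratio 1.35) and *Bmpr1a*, a type I receptor, had 17.4 against 38.9 FPKM (log2 ratio 1.16). None of 18 TGF-beta genes passed 3-fold. Their median was 0.53, with the receptors *Tgfbr1* and *Tgfbr2* at 28.5 against 54.9 FPKM and 33.9 against 57.2 FPKM and the ligand *Tgfb1* in the other direction at 69.8 against 28.8 FPKM (log2 ratio -1.28).

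Among FGF genes, which act with Twist1 at the coronal suture, *Fgf23* alone of 12 passed 3-fold. The receptors *Fgfr1*, *Fgfr2* and *Fgfr3* had 62.1 against 63.7 FPKM, 29.2 against 53.6 FPKM and 16.3 against 21.3 FPKM, and the feedback genes *Spry1* and *Dusp6* had 8.77 against 17.1 FPKM and 20.4 against 37.9 FPKM. None of 7 hedgehog genes passed 3-fold, with the co-receptor *Gas1* at 23.5 against 58.03 FPKM (log2 ratio 1.31). Among 10 Notch genes *Dlk1*, an imprinted ligand-like protein, passed it at 0.901 against 7.51 FPKM, and the receptor *Notch1* had 7.17 against 3.26 FPKM (log2 ratio -1.14). The medians of the Wnt, BMP, FGF and hedgehog lists were 0.24, 0.27, 0.41 and 0.20, and each changed sign with *Gapdh* scaling.

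Among transcription factors that pattern the embryonic head, 1 of 11 compared neural crest factors passed 3-fold. Of 14 compared factors of head mesoderm and mesenchyme, 1 passed it in each direction. The share over all compared genes was 8.44% in either direction, and with lists this small no difference from it is claimed. Of 27 neural crest factors in the files, 11 were compared and 15 stayed below 5 FPKM in both bones, among them *Sox10* at 3.85 against 1.13 FPKM, *Foxd3* at 1.24 against 0.266 FPKM and *Tfap2a* at 0.295 against 0.3001 FPKM. Among those compared *Dlx1* was the only one past 3-fold, with 7.47 FPKM in frontal and 0.301 FPKM in parietal bone. *Dlx1* is also a gene of olfactory bulb interneurons. The neuronal genes described below were higher in frontal bone as well, and their part in its value was not tested. *Alx4*, of the frontonasal skull, had 14.8 against 13.99 FPKM, and *Zic1* and *Six2* had 10.3 against 17.7 FPKM and 10.9 against 18.5 FPKM. Of 14 compared factors of head mesoderm and mesenchyme, *Prrx2*, a mesenchymal homeobox gene, was higher in parietal bone past 3-fold at 16.2 against 62.6 FPKM, and *Meis2* was higher in frontal bone at 9.09 against 2.56 FPKM. The same order held for both in the *Twist1*+/- libraries, at 12.1 against 41.4 FPKM for *Prrx2* and 9.25 against 4.94 FPKM for *Meis2*. The mesodermal gene *Meox1* had 2.85 against 7.08 FPKM, *Foxc1* had 13.99 against 18.5 FPKM, and *En1*, which marks the coronal boundary, had 6.94 against 5.55 FPKM. *Twist1* itself had 59.02 against 52.5 FPKM, a log2 ratio of -0.17 that became -0.61 with *Gapdh* scaling, and in *Twist1*+/- bone it had 30.4 against 50.7 FPKM. *Zeb1*, *Snai1* and *Snai2*, factors of epithelial-mesenchymal transition, had log2 ratios of 0.88, 0.17 and 0.57. Of 39 Hox genes, which pattern the trunk and are silent in the front of the head, none reached 5 FPKM in either bone, and their summed FPKM was 2.58 and 3.96.

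**Figure D3:**
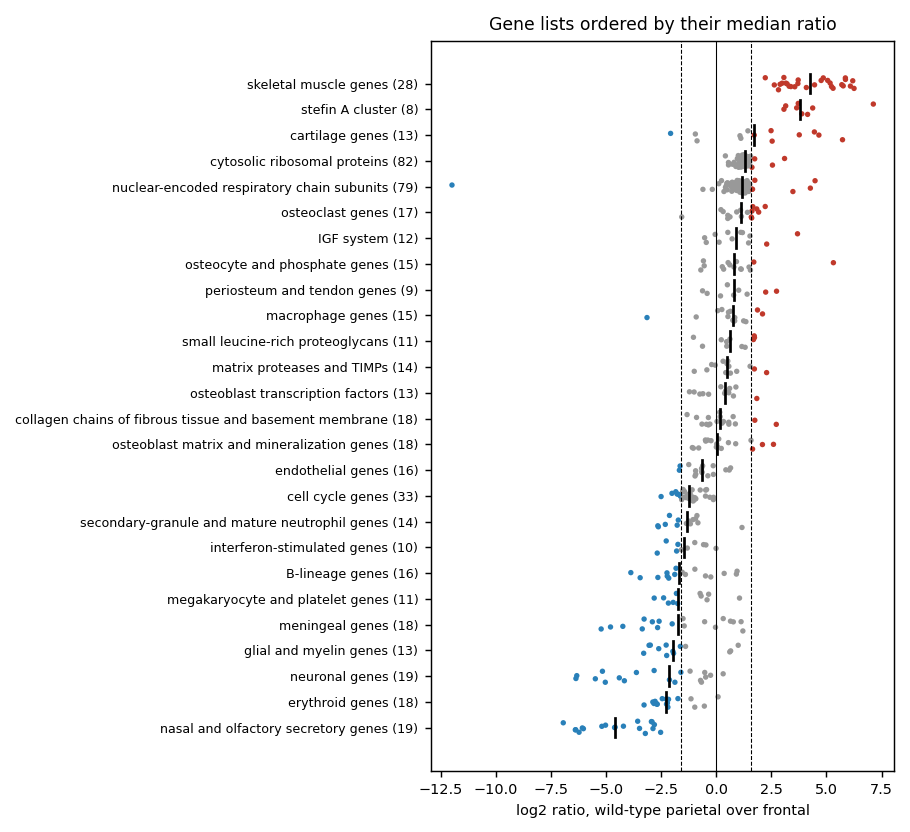
Log2 ratios of wild-type parietal over frontal bone (horizontal axis) for 26 gene lists ordered by median, with the number of compared genes in brackets, 1 point a gene, red and blue points past 3-fold, and a black bar at each median. The bone lists sit between 0.04 and 1.72, the muscle list at 4.27 and the nasal list at -4.59.

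Marrow lineages went in different directions. Erythroid genes were higher in frontal bone: of 18 compared, 14 passed 3-fold in that direction and none in the other, with a median of -2.27. *Klf1*, the master regulator of red cell genes, had 74.1 against 7.64 FPKM (9.701-fold), *Gata1* had 33.4 against 6.099 FPKM, and the membrane proteins *Slc4a1* and *Kel* had 365 against 79.6 FPKM and 45.4 against 6.16 FPKM. The genes of haem synthesis were closer, with *Alas2* at 576 against 395 FPKM and *Fech* at 153 against 77.9 FPKM, and the transferrin receptor *Tfrc* had 157 against 166 FPKM. The globins give no ratio, and with them the summed FPKM of the 23 genes of the list was 2365 and 43948, the opposite order to the median. The *Twist1*+/- libraries, where most globins are above 0, had sums of 34719 and 53386. Beside the erythroid genes stood those of cell division. All 33 compared cell cycle genes had the higher value in frontal bone, 6 of them past 3-fold and 18 with *Gapdh* scaling, with a median of -1.24. *Mki67*, the proliferation marker, had 67.5 against 11.9 FPKM (5.68-fold), *Plk1*, a mitotic kinase, had 23.3 against 5.79 FPKM, *Rrm2*, which makes deoxynucleotides, had 132 against 38.5 FPKM, and the helicase subunit *Mcm5* had 42.7 against 12.97 FPKM. *Cdk1* had 40.4 against 36.8 FPKM. The *Twist1*+/- medians of the erythroid and cell cycle lists were -0.24 and -0.24, and no gene of either passed 3-fold.

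Neutrophil genes were higher in frontal bone, with 1 gene cluster as the exception. Of 14 genes of secondary granules and mature neutrophils, 6 passed 3-fold in that direction (11 with the length trend subtracted) and none in the other, with a median of -1.31. The 1 gene with the higher value in parietal bone was *Olfm4*, at 10.8 against 24.2 FPKM. The alarmins *S100a8* and *S100a9*, among the highest values of the marrow, had 8034 against 4373 FPKM and 4183 against 2007 FPKM, *Ltf*, the lactoferrin gene, had 250.5 against 50.4 FPKM (4.97-fold) and *Ngp* had 1159.5 against 339 FPKM. Of 9 genes of primary granules and precursors, 5 passed 3-fold, led by *Mpo*, myeloperoxidase, at 157 against 21.2 FPKM and *Elane*, neutrophil elastase, at 175 against 27.8 FPKM. In the *Twist1*+/- libraries the mature list had a median of -1.04, with all 14 genes higher in frontal bone.

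The stefin A cluster, cysteine protease inhibitors that neutrophils make, went the opposite way. All 8 compared members passed 3-fold in favour of parietal bone, with a median of 3.80. *Stfa1* (chromosome 16, from 36277213 to 36285457) had 47.8 against 704 FPKM, *Stfa2* had 30.3 against 399 FPKM, *Stfa3* had 21.8 against 386 FPKM, *BC100530* had 50.7 against 635 FPKM and *Gm5483* had 54.5 against 483 FPKM. The largest ratio belonged to *2010005H15Rik* at 0.585 against 81.7 FPKM. These genes are near-identical neighbours on chromosome 16, and the counting could have split reads among them, so their single values are uncertain. The sum over all 9 genes of the list, 246 FPKM in frontal and 3039.7 FPKM in parietal bone, depends less on that split. In *Twist1*+/- bone the sum over the 9 was 711 FPKM in frontal and 345 FPKM in parietal bone. All 8 compared members had the higher value in frontal bone there.

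B-lineage and platelet genes were higher in frontal bone, 8 of 16 past 3-fold with a median of -1.69 for the first and 6 of 11 with a median of -1.75 for the second. With a pseudocount of 1 FPKM the platelet count was 3. *Cd79a*, part of the B cell receptor, had 50.3 against 10.8 FPKM and *Ms4a1*, the CD20 gene of mature B cells, had 20.6 against 1.398 FPKM. The surrogate light chain genes of pre-B cells had the other order, *Vpreb1* at 11.5 against 21.7 FPKM and *Igll1* at 22.9 against 43.99 FPKM, short of 3-fold. Among platelet genes *Itga2b* was 5.24-fold higher in frontal bone and *Gp5* had 11.1 against 1.57 FPKM, while the chemokine gene *Pf4* had 132 against 274 FPKM. Of 18 T and NK cell genes, 17 stayed below 5 FPKM in both bones. The niche factor *Cxcl12*, which holds blood cells in marrow, had 311 against 128 FPKM (log2 ratio -1.28), and all 9 compared niche genes had the higher value in frontal bone.

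Macrophage genes leaned to parietal bone. Of 15 compared, 13 had the higher value there, with a median of 0.75. *Trem2*, a lipid receptor of macrophages, had 3.85 against 16.5 FPKM, *Folr2* had 2.65 against 9.69 FPKM, *Cd68* had 97.4 against 247 FPKM and the complement gene *C1qb* had 69.6 against 124 FPKM. The lysozyme genes *Lyz1* and *Lyz2*, the second of which neutrophils share, had the other order at 5.75 against 0.6501 FPKM and 898 against 477 FPKM. Genes of mast cells, basophils and eosinophils went in both directions. Of 12 compared, 8 had the higher value in frontal bone, with a median of -0.59. The protease genes of connective tissue mast cells, *Cma1*, *Tpsb2*, *Mcpt4* and *Cpa3*, were the 4 higher in parietal bone and passed 3-fold, at 2.22 against 30.6 FPKM, 2.896 against 39.1 FPKM, 2.94 against 27.7 FPKM and 3.82 against 23.9 FPKM. *Kit*, the stem cell factor receptor of mast cells and blood precursors, was past 3-fold the other way at 6.96 against 2.11 FPKM. *Hdc*, which makes histamine, had 10.8 against 5.21 FPKM, and the eosinophil genes *Prg2* and *Epx* had 154 against 112 FPKM and 9.68 against 5.41 FPKM. MHC class II genes, of antigen-presenting cells, had a median of -0.76, with *Cd74* at 157 against 45.8 FPKM and *H2-Aa* at 91.2 against 71.3 FPKM. Interferon-stimulated genes had a median of -1.45. None of 10 had the higher value in parietal bone and 4 passed 3-fold: *Usp18* at 6.68 against 1.04 FPKM, *Irf7* at 19.2 against 3.98 FPKM, *Isg15* at 65.02 against 18.7 FPKM and *Oasl2* at 7.197 against 2.15 FPKM. Of the same 10 genes, 5 had the higher value in *Twist1*+/- parietal bone and 5 in *Twist1*+/- frontal bone.

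Endothelial genes, of the vessel lining, leaned to frontal bone, where 13 of 16 had the higher value. Of these 2 passed 3-fold, *Flt1* at 7.403 against 2.32 FPKM and *Vwf* at 11.2 against 3.58 FPKM, and the list median was -0.65. *Pecam1* had 31.1 against 41.9 FPKM and *Cdh5* had 21.2 against 13.5 FPKM. Genes of contractile vessel cells and pericytes had a median of 0.45, with 6 of 10 higher in parietal bone. *Rgs5*, *Acta2* and *Tagln* passed 3-fold there, at 32.2 against 122 FPKM, 28.4 against 101 FPKM and 20.1 against 67.7 FPKM, and with *Gapdh* scaling 0 of the 10 did. *Abcc9*, a channel subunit of pericytes, and the receptor *Notch3* had the higher value in frontal bone at 18.6 against 10.01 FPKM and 9.54 against 5.81 FPKM, and the pericyte receptor *Pdgfrb* had 23.4 against 23.9 FPKM. Of 8 compared adipocyte genes 7 had the higher value in frontal bone, with the adiponectin gene *Adipoq* at 15.2 against 2.63 FPKM and the lipid desaturase gene *Scd1* at 28.2 against 9.19 FPKM past 3-fold.

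Genes of tissues that adjoin the bones had larger median ratios than the bone lists. Skeletal muscle genes were higher in parietal bone in all 28 compared, with a median of 4.27, and the summed FPKM of the 47 genes of the list was 182 in frontal and 4921 in parietal bone. The fast light chain genes *Mylpf* and *Myl1* had 25.02 against 1295 FPKM and 11.96 against 695 FPKM, the fast troponin *Tnnc2* had 11.9 against 645 FPKM, *Ckm*, muscle creatine kinase, had 9.08 against 263 FPKM, and *Casq1*, the calcium store protein, had 1.06 against 81.03 FPKM. *Myh8*, the perinatal myosin, had 0.467 against 31.7 FPKM. Sums in the *Twist1*+/- libraries were 1836 and 2494 FPKM, so the wild-type frontal library was the lowest of the 4 for muscle. Muscle genes also include forms of the respiratory chain and ribosome: *Cox6a2* (5.23 against 117 FPKM), *Cox8b* (4.05 against 78.1 FPKM), *Cox7a1* (5.13 against 57.1 FPKM) and *Rpl3l* (1.08 against 6.33 FPKM).

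Nasal secretory genes were higher in frontal bone in all 19 compared, past 3-fold in each, with a median of -4.59. *Obp2a* and *Obp1a*, odorant-binding proteins of nasal glands, had 91.9 against 0.747 FPKM and 57.6 against 0.852 FPKM, *Bpifa1*, an airway defence protein, had 108 against 14.7 FPKM, and *Omp*, the olfactory marker protein, had 34.5 against 1.86 FPKM. Their summed FPKM was 717 and 47.8 in the wild-type libraries against 3473 and 3831 in the *Twist1*+/- libraries, so wild-type parietal bone was the lowest of the 4. Among the families here, odorant-binding and major urinary proteins have close copies whose reads may be shared. Motile cilia genes, which nasal epithelium carries, stayed below 5 FPKM in all but 1 of 20.

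Neural genes were higher in frontal bone. Of 19 compared neuronal genes 12 passed 3-fold in that direction and none in the other, with a median of -2.13. *Gad1*, which makes the inhibitory transmitter GABA, had 31.7 against 0.383 FPKM, the synaptic genes *Snap25* and *Syt1* had 50.1 against 1.53 FPKM and 28.5 against 0.636 FPKM, and the glutamate transporter *Slc17a7* had 42.8 against 2.02 FPKM. *Nefl*, a neurofilament of peripheral axons as well, had 5.199 against 3.17 FPKM. Of 13 glial genes 9 passed 3-fold, with the astrocyte filament *Gfap* at 59.1 against 7.13 FPKM. Of 18 meningeal genes 9 passed 3-fold with a median of -1.76. *Ptgds* (chromosome 2, from 25322229 to 25325566), the prostaglandin D synthase of the arachnoid, had 1975 FPKM in frontal and 52.8 FPKM in parietal bone (37.4-fold), and the solute carriers *Slc6a13* and *Slc22a6* had 13.9 against 2.302 FPKM and 5.197 against 0.187 FPKM. *Ptgds* was at 327 against 428 FPKM in the *Twist1*+/- libraries. The part that these tissues play in the differences of bone genes was not tested. A further count left out the muscle, neuronal, glial, meningeal, nasal, erythroid, neutrophil, B-lineage and platelet lists. It gave 276 genes higher in parietal and 475 in frontal bone past 3-fold. Genes of other lists, such as stefin, macrophage, mast cell, adipocyte and olfactory bulb, stayed in unless shared with a list left out.

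The enamel protein gene *Amelx* had 10.8 against 0.07595 FPKM, and *Perp* alone of 29 epithelial genes was compared, at 8.75 against 8.65 FPKM. *Cdh1*, the epithelial cadherin, stayed below 5 FPKM at 3.17 against 0.265 FPKM. Among Y-linked genes *Ddx3y* had 3.11 against 12.7 FPKM and *Eif2s3y* had 5.44 against 21.3 FPKM, while *Xist*, expressed from the inactive X of females, had 51.7 against 39.2 FPKM. Both wild-type libraries held Y-linked and *Xist* RNA, and the sexes of the animals are not given in the sources used here.

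Promoter sequences are shown for 4 groups whose members moved together, and a short motif that known regulators of each group bind was searched in the 250 bases before each start of RefSeq transcripts. Lists and motifs were chosen after the values were seen. Only sequences that hold the motif were printed, taken in order of the absolute log2 ratio of the gene. Members without the motif were passed over, so the printed sequences do not stand for their lists. The sequences are from RefSeq (GRCm38.p6), the positions are those of an exact match to mm9, and each is written on the strand of its gene with the motif in capitals. The CAGCTG motif, a site of the muscle bHLH factors, was present in 11 of the 20 compared muscle genes that have such a sequence, against 14.7% of all 27025 genes. It lies 195 bases before the start in *Casq1* (chr1:174150027-174150276), 224 in *Myl1* (chr1:66991631-66991880) and 51 in *Mylpf* (chr7:134354872-134355121).
Casq1: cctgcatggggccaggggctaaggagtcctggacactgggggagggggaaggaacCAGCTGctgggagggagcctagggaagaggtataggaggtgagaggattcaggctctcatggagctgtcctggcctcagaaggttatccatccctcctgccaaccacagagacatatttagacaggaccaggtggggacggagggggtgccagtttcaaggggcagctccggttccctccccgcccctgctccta
Myl1: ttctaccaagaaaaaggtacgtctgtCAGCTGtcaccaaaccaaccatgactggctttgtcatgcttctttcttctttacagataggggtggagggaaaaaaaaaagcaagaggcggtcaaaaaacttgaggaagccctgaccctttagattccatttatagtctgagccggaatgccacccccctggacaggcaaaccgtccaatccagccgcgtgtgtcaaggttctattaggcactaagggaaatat
Mylpf: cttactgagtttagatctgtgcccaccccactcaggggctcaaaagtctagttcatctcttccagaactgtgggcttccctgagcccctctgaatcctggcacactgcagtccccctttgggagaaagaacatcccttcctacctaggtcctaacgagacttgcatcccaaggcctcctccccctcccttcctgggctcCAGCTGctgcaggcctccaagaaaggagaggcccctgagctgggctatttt

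The AGATAA motif of GATA factors was present on either strand in 4 of 11 compared erythroid genes. This compares with 11.4% of all genes and 7.08% of compared genes. The motif was also in 5 of 18 nasal, 2 of 4 stefin, 2 of 9 osteoclast and 2 of 10 cartilage genes. In *Kel* (chr6:41654325-41654574) it lies 56 bases and in *Rhd* (chr4:134420201-134420450) 43 bases before the start, and both genes were higher in frontal bone, at 45.4 against 6.16 FPKM and 159 against 33.3 FPKM.
Kel: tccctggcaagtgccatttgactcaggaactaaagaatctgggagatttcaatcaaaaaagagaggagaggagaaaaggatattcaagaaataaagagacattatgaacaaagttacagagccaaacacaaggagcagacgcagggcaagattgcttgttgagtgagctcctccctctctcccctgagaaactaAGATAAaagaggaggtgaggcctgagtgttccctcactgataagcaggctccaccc
Rhd: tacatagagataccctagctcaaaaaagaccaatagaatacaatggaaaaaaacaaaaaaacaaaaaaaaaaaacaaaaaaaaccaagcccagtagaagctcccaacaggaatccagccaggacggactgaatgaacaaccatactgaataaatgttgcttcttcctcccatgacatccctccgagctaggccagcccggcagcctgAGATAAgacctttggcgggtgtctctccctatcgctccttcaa

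For the interferon-stimulated genes the core of the response element, a GAAA, any 2 bases and another GAAA, was present on either strand in 3 of 6. This compares with 3.46% of all genes and 3.09% of compared genes. *Isg15* (chr4:155574928-155575177) holds 3 overlapping copies, the first 78 bases before the start, and *Rsad2* (chr12:27141318-27141567) holds 1 copy, 120 bases before it.
Isg15: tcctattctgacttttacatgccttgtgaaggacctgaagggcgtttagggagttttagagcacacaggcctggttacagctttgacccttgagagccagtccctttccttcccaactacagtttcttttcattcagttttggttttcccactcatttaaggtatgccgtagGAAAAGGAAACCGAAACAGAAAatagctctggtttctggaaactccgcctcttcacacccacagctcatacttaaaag
Rsad2: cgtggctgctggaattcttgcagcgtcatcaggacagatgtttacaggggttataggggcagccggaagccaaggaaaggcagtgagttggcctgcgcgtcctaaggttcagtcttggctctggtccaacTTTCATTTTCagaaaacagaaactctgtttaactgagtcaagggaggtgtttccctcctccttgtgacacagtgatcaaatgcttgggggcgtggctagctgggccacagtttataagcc

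TATAAA, the sequence of the box that positions the start of transcription, was found in 11 of 18 nasal genes. This compares with 14.3% of all genes and 8.22% of compared genes. It was also in 3 of 6 interferon-stimulated, 6 of 20 muscle, 3 of 10 cartilage and 3 of 11 erythroid genes. It lies 61 bases before the start of *Obp2a* (chr2:25555344-25555593) and 70 before that of *Gm14743* (chrX:75491261-75491510). Whether these copies position a start was not tested.
Obp2a: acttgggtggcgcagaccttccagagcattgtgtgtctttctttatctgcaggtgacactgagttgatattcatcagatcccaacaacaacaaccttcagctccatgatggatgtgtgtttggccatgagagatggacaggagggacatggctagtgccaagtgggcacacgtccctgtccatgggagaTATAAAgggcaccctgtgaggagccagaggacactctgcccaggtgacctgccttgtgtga
Gm14743: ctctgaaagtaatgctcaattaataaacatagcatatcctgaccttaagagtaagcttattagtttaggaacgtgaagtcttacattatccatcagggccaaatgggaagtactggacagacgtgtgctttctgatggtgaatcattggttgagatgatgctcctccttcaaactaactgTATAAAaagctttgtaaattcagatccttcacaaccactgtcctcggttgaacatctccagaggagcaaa

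In all, 8 motifs were searched in 12 lists, a gene was counted when any of its starts held the motif, and CAGCTG and TATAAA can also fall within longer sites. A match describes these letters in this window and is no measure of binding.

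Genes of protein synthesis and respiration were higher in parietal bone. All 82 compared cytosolic ribosomal protein genes had the higher value in parietal bone, 4 past 3-fold, with a median of 1.29, and 76 of 79 nuclear-encoded respiratory chain genes did, 6 past 3-fold, with a median of 1.17. The muscle form *Rpl3l* was among the 4, and the muscle forms *Cox6a2*, *Cox8b* and *Cox7a1* were among the 6. The counts past 3-fold were 2 and 3 with *Gapdh* scaling, and the ribosomal count was 10 with the GC trend subtracted. *Rplp1*, a stalk protein of the ribosome, had 2849 against 7658 FPKM and *Rps12* had 1568 against 4612 FPKM. Ribosomal protein genes have many pseudogene copies, so single values are uncertain. These genes have short transcripts, and the ratio fell with transcript length across all genes, with a Spearman rho of -0.34 in wild type and -0.49 in *Twist1*+/- bone. In the group of shortest transcripts, of 54 to 897 bases, the median was 0.97, and in the longest, from 7410 bases, it was -0.27. The ratio also varied with GC content, with a rho of -0.15 in wild type and 0.47 in *Twist1*+/- bone. After the median of genes of like length was subtracted, the ribosomal list had a median of 0.43 and the respiratory list 0.36, while the osteoclast, osteocyte and cell cycle lists had 1.06, 0.88 and -1.12. The part of transcript length in these differences was not tested further. *Ndufs5*, a subunit of complex I, had the lowest ratio of all compared genes, 15.7 FPKM in frontal and 0.00384 FPKM in parietal bone, with 0.0449 against 0.0113 FPKM in *Twist1*+/- bone. It was the 1 respiratory chain gene higher in frontal bone past 3-fold. Only the wild-type frontal library held it above 1 FPKM, while *Ndufc1*, of the same complex, had 122 against 381 FPKM. The values of *Ndufs5* are therefore given only as listed.

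**Figure D4:**
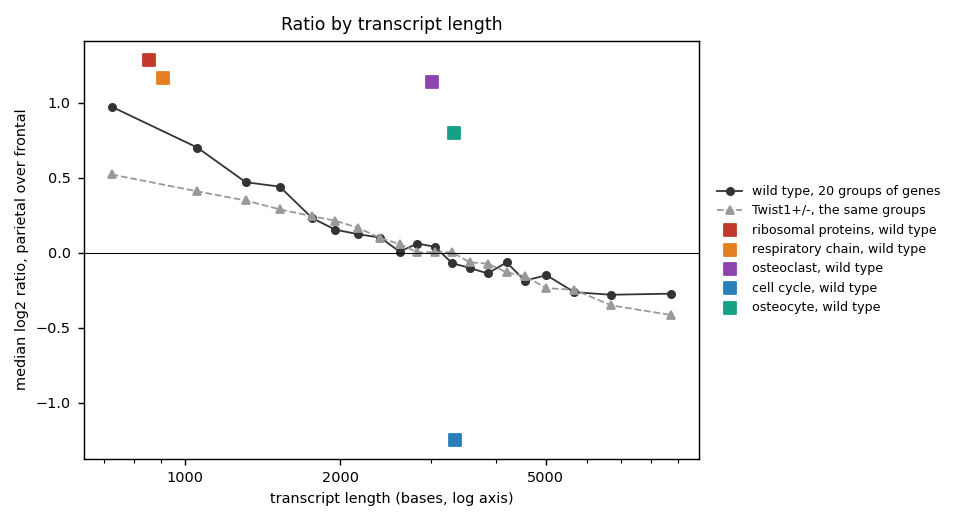
Median log2 ratio of parietal over frontal bone (vertical axis) against transcript length (log axis) in 20 groups of genes of equal size, for wild type (black) and *Twist1*+/- (grey), with the wild-type medians of 5 gene lists as squares at their median length. The ribosomal and respiratory squares lie above the line at its short end, at 1.29 and 1.17, and the osteoclast and cell cycle squares lie above and below it, at 1.14 and -1.24.

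Glycolytic genes lay on both sides. Of 16 compared, *Eno2*, *Aldoc* and *Hk1* were higher in frontal bone past 3-fold, at 29.05 against 3.47 FPKM, 67.4 against 13.3 FPKM and 34.1 against 11.3 FPKM, and the first 2 are forms of the nervous system. *Ldha*, lactate dehydrogenase, had 199 against 448 FPKM (log2 ratio 1.17) and *Gapdh* had 158 against 215 FPKM (log2 ratio 0.44). Chaperone genes, which help proteins fold, had the higher value in frontal bone in 12 of 14, with *Hsph1* at 32.5 against 4.88 FPKM and *Hyou1* at 29.2 against 7.39 FPKM past 3-fold. Immediate-early genes, which respond within minutes to stimuli such as dissection, had 9 of 17 with the higher value in parietal bone. *Ier3* was past 3-fold there at 8.01 against 25.6 FPKM, *Btg2* and *Nr4a2* were past it in frontal bone at 51.5 against 14.2 FPKM and 5.25 against 1.72 FPKM, and *Fos* had 8.13 against 18.6 FPKM.

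The genes with the highest ratio of parietal over frontal bone were *3110079O15Rik* (0.0761 against 34.4 FPKM), *Tceal7* (0.208 against 65.8 FPKM), *Asb5* (0.0203 against 5.72 FPKM) and *Clec3a*, a cartilage lectin (0.0352 against 5.03 FPKM). *Tmem215*, *Gpha2* and *Prr32* were also among the 15, and the other 8 were *2010005H15Rik* and genes known in muscle (*Actc1*, *Casq1*, *Sln*, *Myh8*, *Itgb1bp2*, *Myl1* and *Myh2*). *Gpha2*, an alpha subunit of a glycoprotein hormone, had 3.01 FPKM in frontal and 204 FPKM in parietal bone and 2.05 against 2.01 FPKM in *Twist1*+/- bone. At the other end, beside *Ndufs5*, were *Ms4a15* (9.66 against 0.0283 FPKM), *Mup4* (17.7 against 0.1097 FPKM) and *Mup5* (15.2 against 0.217 FPKM), which encode urinary pheromone carriers, *Amelx*, *5430401F13Rik*, the photoreceptor and olfactory cadherin *Cdhr1* (23.97 against 0.2802 FPKM), the GABA genes *Gad1*, *Gad2* and *Slc32a1*, and the nasal genes *Obp2a*, *Obp2b*, *Lcn11*, *Gm14743* and *Gm14744*. Of the 867 genes past 3-fold in either direction (8.44%), 211 belong to 1 of the 51 gene lists used above, 91 of them higher in parietal and 120 in frontal bone.

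The *Twist1*+/- libraries, which share no library with the wild-type pair, showed smaller differences between the bones. Of 10270 genes with a ratio in both pairs, 29 (0.282%) were higher in parietal and 85 (0.828%) in frontal bone past 3-fold there, together 1.11%, and the SD of the log2 ratio was 0.54. Of the 303 genes higher in wild-type parietal bone by more than 3-fold that have a ratio there, 250 (82.5%) also had the higher value in *Twist1*+/- parietal bone, against 53.5% of all compared genes, and 15 passed 3-fold in the same direction. Of the 563 higher in wild-type frontal bone, 473 (84.0%) had the higher value in *Twist1*+/- frontal bone, against 46.5%, and 49 passed 3-fold. The median *Twist1*+/- ratio was 0.55 for the first group and -0.65 for the second. Across genes, which are not independent replicates and share their library, length and base composition, Pearson's r of the log2 ratios was 0.45 and Spearman's rho 0.44. The muscle list went from a median of 4.27 to 0.53, the nasal list from -4.59 to -0.06 and the stefin list from 3.80 to -0.99, whereas the osteoclast list went from 1.14 to 0.83. Whether any of these values differ between the genotypes was not tested.

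**Figure D5:**
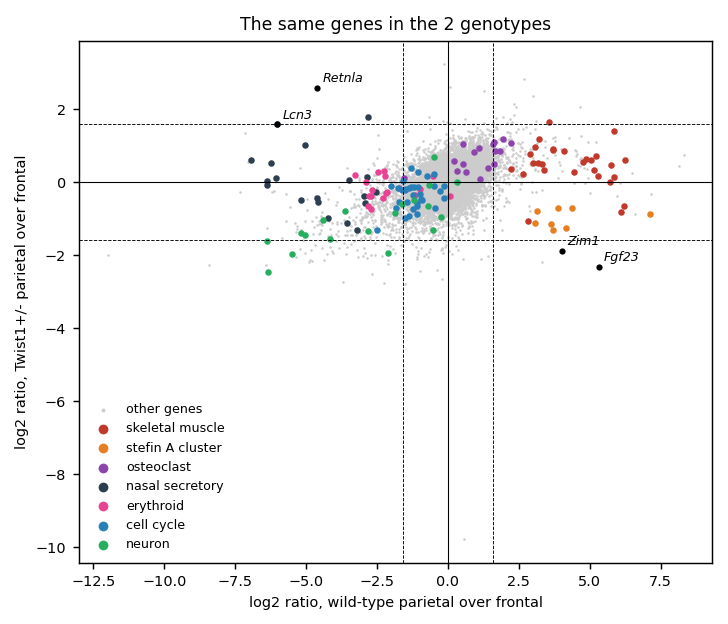
Log2 ratio of parietal over frontal bone in wild type (horizontal axis) and in *Twist1*+/- mice (vertical axis), 1 point a gene, with gene lists in colour and dashed lines at 3-fold. The osteoclast genes lie on the upper right except *Car2* on the left, the muscle and nasal genes spread along the horizontal axis with medians near 0.53 and -0.06 on the vertical one, and *Fgf23* and *Zim1* lie on the lower right.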

How the data were processed

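Total RNA of frontal and parietal bones (12 mice of each genotype) was sequenced by the authors as poly(A) libraries on a NextSeq instrument, as single-end reads of 75 bases. Reads were aligned to mm9 with STAR 2.4.2a, and the FPKM values were computed by the authors with Cuffdiff (Cufflinks 2.2.1) and deposited as 1 table per library. The scaling option used is not given in the sources used here. The log2 ratio of parietal over frontal FPKM was computed here with no pseudocount in Python 3.11.15 (pandas 2.3.3, numpy 2.4.6), and the fold threshold was 3. FPKM are not counts and each group has 1 library, so no test was run and no interval can be given. The script was checked on simulated data.

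The comparison and the 51 gene lists were chosen with earlier results of these data known, and 7 further lists and the promoter motifs after the values were seen. The rule for named genes took the 15 highest and 15 lowest ratios and, in each list, the 6 with the largest absolute log2 ratio and the 4 with the highest FPKM (all members of lists of up to 15 compared genes), together with *Twist1*, *Fgf23*, *Zeb1*, *Snai1*, *Snai2*, *Cdh1*, *Sp7*, *Bglap* and *Gapdh*. Many genes that the rule selects are not printed, and their lists are given by counts and medians. Other genes were named outside the rule after their values were seen: *Acan*, *Alpl*, *Cdh5*, *Cdk1*, *Ckm*, *Fech*, *Foxd3*, *Gata1*, *Nefl*, *Nfatc1*, *Omp*, *Rhd*, *Serpinf1*, *Siglec15*, *Slc6a13*, *Sox9*, *Sox10*, *Tfap2a*, *Tnfrsf11a*, *Vpreb1*, the genes listed at 0 on 1 side, and *A930003A15Rik*, *Retnla* and *Scgb1c1*. Transcript length and GC content came from a gene annotation of mm9, for 93.4% of the compared genes, and their trends were medians over 20 groups of genes. Alternatives were pseudocounts of 1 and 0.1 FPKM, other floors, a 2-fold threshold, scaling to the same median ratio or to *Gapdh*, trends of length or GC content subtracted, and short RNA genes or zeros kept. Some items are not reported here.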

Additional observations from a re-analysis of the deposited data

Results flagged for a closer look

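For 6 genes, the difference between the bones passed 3-fold in wild type and passed 3-fold in the opposite direction in *Twist1*+/- mice. Each value rests on 1 library, and the difference between the genotypes was not tested. *Fgf23*, the phosphate hormone gene, had a log2 ratio of parietal over frontal bone of 5.31 in wild type and -2.31 in *Twist1*+/- bone. *Zim1*, an imprinted zinc-finger gene, had 4.01 and -1.87, from 0.468 against 7.56 FPKM in wild type and 0.423 against 0.116 FPKM in *Twist1*+/- bone. *A930003A15Rik* had log2 ratios of 3.32 and -2.20.

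The other 3 genes were higher in frontal bone in wild type. *Retnla*, a marker of alternatively activated macrophages that airway epithelium also secretes, had log2 ratios of -4.61 in wild type and 2.58 in *Twist1*+/- bone, from 68.8 against 2.81 FPKM and 6.81 against 40.8 FPKM. *Lcn3*, a lipocalin of nasal glands, had -6.03 and 1.60, and *Scgb1c1*, a secretoglobin of olfactory mucosa, had -2.81 and 1.79. The nasal list summed to 717 FPKM in frontal and 47.8 FPKM in parietal bone of wild type, against 3473 and 3831 FPKM in the same order with 1 copy of *Twist1*. Its part in the values of *Retnla*, *Lcn3* and *Scgb1c1* was not tested.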

How the results depend on the processing

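The counts past 3-fold, 304 higher in parietal and 563 higher in frontal bone, stayed within 1.5 times of themselves under several settings. These were a pseudocount of 1 or 0.1 FPKM, scaling to the median ratio, and a GC or length trend subtracted. The same held with short RNA genes kept, zeros counted, or the muscle, neuronal, glial, meningeal, nasal, erythroid, neutrophil, B-lineage and platelet lists left out. The last of these and the length trend were chosen after seeing the data. The counts moved to 521 and 1255 with a floor of 1 FPKM, to 958 and 1928 with no floor, and to 1127 and 1109 past 2-fold. With a floor of 20 FPKM they were 170 and 191, and the share of calls that were higher in parietal bone went from 35.1% to 47.1%. With *Gapdh* scaling they were 180 and 922, a share of 16.3%. Of 57 list medians, *Gapdh* scaling changed the sign of 11, the length trend of 3, the GC trend of 2 and median scaling of 1. No paired analysis was possible because each group has 1 library and no result comes from a test. Which scaling is right cannot be told from 1 library a side. Any difference in depth, dissection or the sex of the animals between these libraries cannot be told apart from the bone, and the precision of ratios with a value under 1 FPKM is unknown.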

Other observations

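Imprinted genes, which are expressed from 1 parental copy and many of which act in fetal growth, were often higher in parietal bone. This list and those below were put together after the values were seen, so their counts are descriptions. Of 23 compared genes, 9 were higher in parietal and 2 in frontal bone past 3-fold, with a median log2 ratio of 0.71. Beside *Igf2*, *H19*, *Dlk1* and *Zim1* these included *Cdkn1c*, a cell cycle inhibitor, at 23.7 against 155 FPKM, *Plagl1*, a zinc-finger factor, at 7.22 against 38.4 FPKM, and *Mest* at 20.95 against 102 FPKM. *Nnat* and *Snrpn*, which neurons express strongly, were higher in frontal bone at 84.4 against 16.4 FPKM and 16.2 against 3.17 FPKM. The *Twist1*+/- pair had a median of 0.27, with *Cdkn1c* at 25.9 against 44.2 FPKM.

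Genes of elastic fibres had a median of 0.59, and 4 of 16 were higher in parietal bone past 3-fold (2 with *Gapdh* scaling): *Eln*, the elastin gene, at 27.8 against 136 FPKM, *Mfap4* at 71.3 against 377 FPKM, *Mfap2* at 62.6 against 208 FPKM and *Mfap5* at 7.44 against 23.8 FPKM. *Emilin2* was past it in frontal bone at 11.6 against 3.29 FPKM. Of 12 compared chemokine genes, 6 were higher in parietal bone past 3-fold (3 with *Gapdh* scaling or the length trend subtracted), among them the monocyte attractants *Ccl2*, *Ccl7*, *Ccl8* and *Ccl12* at 1.39 against 5.49 FPKM, 1.24 against 7.15 FPKM, 4.26 against 17.7 FPKM and 2.26 against 19.5 FPKM, and *Ccl9*, which osteoclasts make, at 15.9 against 62.7 FPKM. *Cx3cl1*, which neurons also make, was past it in frontal bone at 14.8 against 2.34 FPKM.

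Subunits of the vacuolar proton pump had a median of 0.96, and 15 of 19 had the higher value in parietal bone. *Atp6v1g1*, the general form of its subunit, had 61.4 against 247 FPKM, while *Atp6v1g2* and *Atp6v0e2*, forms of the nervous system, were higher in frontal bone at 14.2 against 3.84 FPKM and 25.1 against 5.23 FPKM. Genes of the olfactory bulb were higher in frontal bone past 3-fold in 16 of 18, with a median of -4.57. *Calb2*, of its interneurons, had 58.5 against 1.11 FPKM, and *Th*, of its dopaminergic cells, had 11.3 against 0.3102 FPKM. In *Twist1*+/- bone the median of these 18 was -1.23, with 17 of them higher in frontal bone.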
